A study of Zea mays with 7 samples.

Results

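The genes described here are the 101 genes of maize chromosome 2 that the RefSeq annotation of B73 (version 5 of the reference genome) types as snoRNA or snRNA, out of 5872 annotated genes on that chromosome. They were chosen by annotated type and not by a measured value, though with earlier results of these data known. Positions of genes past b1 rest on an offset inferred from the coverage. The genes comprise 78 snoRNA genes of 58 to 233 bases and 23 snRNA genes of 103 to 201 bases. All 101 had coverage in at least 1 of 6 libraries, and 72 had coverage in all 6. The files hold coverage by small RNAs recovered from ears by RNA immunoprecipitation, in which an antibody pulls down a protein and the RNA bound to it is sequenced. The text of the study gives immature ears, whereas the legend of a figure on this sequencing gives mature ears. According to the methods of the study the antibody was directed against AGO104, whereas the sample labels name AGO104-AGO105 for every library.

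The groups were B73, an inbred line with a neutral b allele at the b1 pigment gene, with 2 libraries, Mm, plants heterozygous for mop1-1 (Mop1-1/mop1-1) in a B' background, with 2 libraries, and mm, homozygous mop1-1/mop1-1 plants in that background, with 2 libraries. A 7th library is labelled ago104, has no replicate and entered no test. MOP1 is the RNA-dependent RNA polymerase that makes the precursors of small interfering RNAs (siRNAs) in RNA-directed DNA methylation, and mop1-1 is a recessive mutation of it. B73 differed from the other groups in its genetic background as well as at b1, and both other groups carry mop1-1. Background, b1 allele and mop1-1 therefore cannot be told apart in a comparison with B73.

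Small nucleolar RNAs (snoRNAs) pair with ribosomal and other RNAs and guide their chemical modification, ribose methylation by the box C/D class and pseudouridylation by the box H/ACA class, and a few act in the cutting of the ribosomal RNA precursor. Small nuclear RNAs (snRNAs) are the RNA parts of the spliceosome, which removes introns. Plant snoRNA genes often lie in groups that are transcribed together, or inside introns of other genes, and short fragments of both kinds of RNA are a regular finding in small-RNA libraries. The annotation gives each gene a locus symbol and a type but neither its class, its target nor its strand. Members are therefore named here by symbol only, and bases are counted from the end of the gene with the lower coordinate. Genes of the same type and like length are called a family here. Their sequences were not compared, so that a family is not a statement of common origin.

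Libraries held between 936656 alignments on chromosome 2 (mm replicate 1) and 4431623 (B73 replicate 2), and the ago104 library held 20104173. Coverage was scaled so that each library summed to 1000000 units over chromosome 2, so that a value is a share of the coverage of that chromosome in a library and not an amount of RNA. The coverage of mm spread over fewer bases, with 3782910 and 5966873 covered bases against 13887447 and 11562435 in Mm. A higher level of a member RNA and a lower level of the other RNAs in a library therefore cannot be told apart. Coverage was concentrated at the annotated genes. The mean depth within the 23 snRNA genes was 63.0 to 829 times that of the 200 bases on both sides. Within the 39 snoRNA genes that lie alone it was 13.7 to 38.7 times. For the 77 members past b1, positions rest on an offset inferred from this same coverage. For those genes the depth ratios are therefore no separate check of position.

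The 2 mm libraries gave more of their coverage to these genes than any other library. The 78 snoRNA genes summed to 1846 and 2558 units in B73, to 1543 and 1942 in Mm, to 4388 and 4443 in mm and to 1637 in the ago104 library. The 23 snRNA genes summed to 962 and 1174 units in B73, 1165 and 1233 in Mm, 2292 and 2466 in mm and 888 in the ago104 library. In both types the mm libraries stood above all others, while B73 and Mm overlapped. The mean of mm was 4415 ± 38.9 units (SD, n = 2) against 1742 ± 282 in Mm for snoRNA genes, a ratio of 2.53, and 2379 ± 123 against 1199 ± 48.0 for snRNA genes, a ratio of 1.98. Against B73 the ratios were 2.01 and 2.23. As the genes were a chosen list, these sums are given with no test. In percent of the coverage of chromosome 2, both types together took 0.281 and 0.373 in B73, 0.271 and 0.317 in Mm and 0.668 and 0.691 in mm. A higher share in mm than in Mm was not particular to these genes. The 209 rRNA genes took 0.283% and 0.313% of coverage in Mm and 0.726% and 0.845% in mm (2.36% and 0.460% in B73), and the 654 lncRNA genes took 1.92% and 2.21% in Mm and 4.19% and 4.12% in mm.

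**Figure D1:**
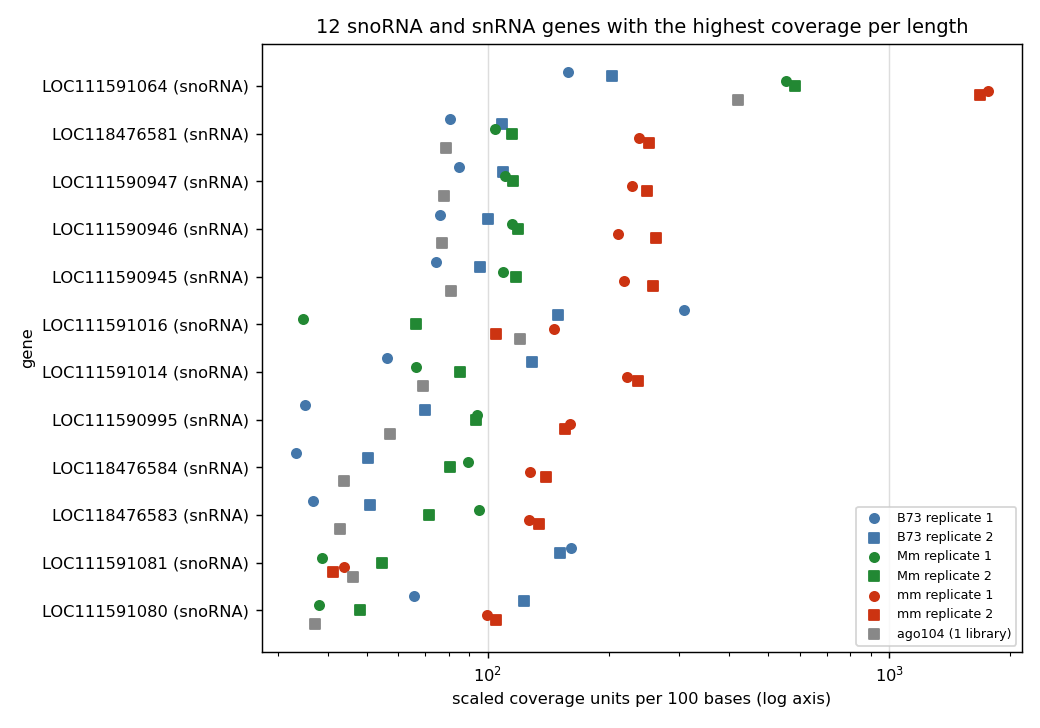
Scaled coverage units per 100 bases (log axis) of the 12 snoRNA and snRNA genes with the highest mean per length, 1 point for each of 7 libraries, coloured by genotype. The mm points of LOC111591064 stand at 1759 and 1677 units per 100 bases, above those of Mm, which stand above those of B73, whereas LOC111591081 is highest in B73.

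A single snoRNA gene, LOC111591064, had the highest coverage in 5 of the 7 libraries. It spans 106 bases at 211907343 to 211907448 of chromosome 2 in the coordinates of the coverage files, inside the pseudogene LOC109944604. It had 168 and 217 units in B73, 586 and 619 in Mm, 1864 and 1777 in mm and 445 in the ago104 library. No genotype overlapped another. The log2 difference between mm and Mm was 1.59 ± 0.29 (SE, adjusted p = 0.0136), between mm and B73 3.25 ± 0.29 (adjusted p = 0.0045) and between Mm and B73 1.65 ± 0.29 (adjusted p = 0.0475). The first of these was called under 14 of 18 alternative settings (adjusted p from 1e-06 to 0.127), the second under all 18 and the last under 8. The first and the last were lost when any 1 of the Mm or mm libraries was left out.

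This gene alone held 9.13% and 8.47% of the snoRNA coverage in B73, 38.0% and 31.9% in Mm and 42.5% and 40.0% in mm. Without it, the other 77 snoRNA genes summed to 1677 and 2341 units in B73, 957 and 1323 in Mm and 2523 and 2665 in mm. The ratio of mm to Mm was then 2.28, and that of mm to B73 fell to 1.29. The difference between mm and B73 in the snoRNA sum thus rested largely on 1 gene, while the ratio of mm to Mm changed little without it. In units, the means of mm and Mm were 4415 and 1742 with this gene and 2594 and 1140 without it. It therefore held a large part of that difference too.

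Coverage of LOC111591064 came from 1 place. Of its coverage over the 6 libraries 99.2% lay in bases 82 to 101, and a stretch of 20 bases would hold 18.9% if coverage were even. Of 2957 alignments in mm replicate 2, 90.1% (Clopper-Pearson 95% interval 88.9% to 91.1%) ended exactly at base 101. In the other libraries this share was 82.2% to 91.4%. Starts were less fixed and fell mainly on bases 82, 83 and 85, which took 24.9%, 29.8% and 27.6% of the alignments in mm replicate 2. Its neighbour LOC111590997, within the same pseudogene, had 94.5 times fewer units per 100 bases.

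**Figure D2:**
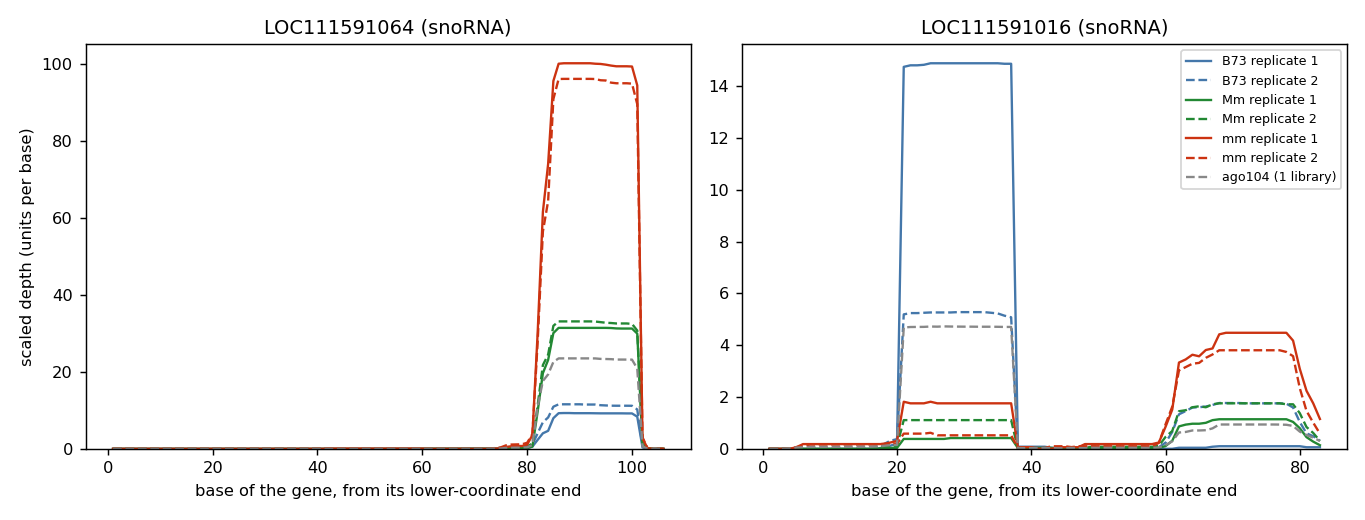
Scaled depth (units per base) along the snoRNA genes LOC111591064 and LOC111591016 in 7 libraries, from the lower-coordinate end of each gene, solid and dashed lines for replicates. In LOC111591064 all libraries peak between bases 82 and 101, and in LOC111591016 B73 replicate 1 peaks at bases 21 to 37 while both mm libraries peak beyond base 60.

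The comparison of mm with Mm bears on loss of MOP1 in one genetic background. Over all 101 genes, both mm libraries lay above both Mm libraries in 70, both lay below in 6 and the groups overlapped in 25. Of the 5858 genes of chromosome 2 with any coverage, 20.9% lay higher and 43.2% lay lower in this way. The mean was higher in mm in 83 of the 101 genes and lower in 15. A gene entered the test of limma if its mean over the 6 libraries was at least 5 units, which 63 members passed (45 snoRNA and 18 snRNA genes). The other 38 had means of 0.0373 to 4.66 units, and in 14 of them mm lay above Mm, in 5 below and in 19 the groups overlapped.

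Of the 63 genes tested, 17 were higher in mm than in Mm and 0 were lower at an adjusted p under 0.05. Among all 4030 genes tested, 2.31% were called higher and 19.1% lower. The 17 were 10 snoRNA and 7 snRNA genes, with log2 differences from 1.06 to 2.82. At an unadjusted p under 0.05 limma gave 33 members higher and 0 lower, and 1482 of the 4030 genes in either direction. On the log2 scale the median difference was 1.22 over the members tested and -0.26 over all genes tested. By type it was 1.3 for snoRNA, 1.06 for snRNA, 1.31 for rRNA genes, 0.45 for tRNA genes, -0.34 for protein-coding genes and -0.68 for lncRNA genes. Without the filter, 20 of the 101 were called higher, where 1.31% of all genes were, and 2 lower, where 13.3% were. The calls depended on each library of the 2 genotypes. Without either Mm library or either mm library 0 members were called, with 14 to 26 higher at an unadjusted p under 0.05, where 893 to 1186 of the 4030 genes passed in either direction. Without B73 replicate 1 or replicate 2, 46 and 45 members were called higher, and of all genes 689 and 678 higher and 1090 and 1087 lower.

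**Figure D3:**
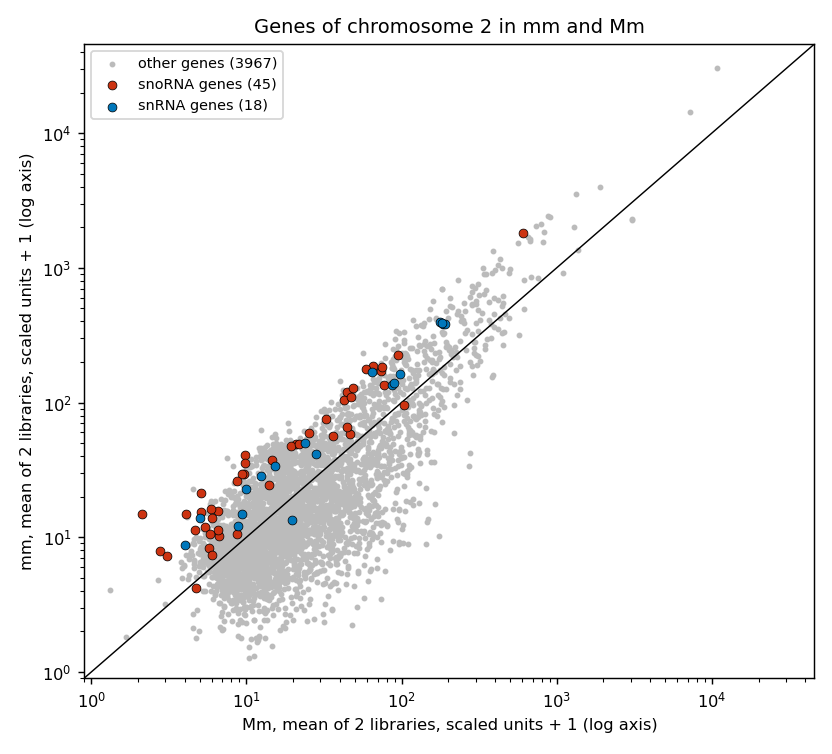
Mean scaled units + 1 in mm against Mm (both axes log, means of 2 libraries) for the 4030 genes tested, with 45 snoRNA genes in red, 18 snRNA genes in blue and equality as a black line. Of the 63 marked genes, 60 lie above the line, while the median of all genes tested is -0.26 on the log2 scale.

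Under a scaling by the median ratio of genes, the median log2 difference of all genes moved from -0.26 to 0.08, which shifted the calls from 93 higher and 771 lower to 191 and 445. The members then had a median of 1.56, with 23 called higher and 0 lower. The values that follow are relative to the coverage of chromosome 2.

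Next to LOC111591064, the snoRNA genes with the largest calls between mm and Mm were of low or middle coverage. LOC111591056 (2493333 to 2493406) had 0 and 1.41 units in B73, 0.725 and 1.53 in Mm and 12.1 and 15.5 in mm, a log2 difference to Mm of 2.82 ± 0.61 (SE, adjusted p = 0.023). LOC111591024 had 2.52 and 5.72 units in Mm and 18.1 and 22.6 in mm, a log2 difference of 2.12 ± 0.41 (adjusted p = 0.0157). In neither gene did the mm libraries overlap any library of the other genotypes. These genes rest on few reads, and LOC111591056 had 10 and 24 alignments in the mm libraries.

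LOC111591014, with 43.2 and 99.5 units in B73, 51.1 and 65.6 in Mm and 171 and 183 in mm, gained 1.59 ± 0.42 on the log2 scale over Mm (adjusted p = 0.0414). Of its coverage 94.7% lay in bases 54 to 73 of 77. LOC111591061 had 39.9 and 54.8 units in Mm and 127 and 127 in mm, with a log2 difference of 1.42 ± 0.35 (adjusted p = 0.0325). LOC111590999 had 43.4 and 49.4 units in Mm and 115 and 105 in mm, with a log2 difference of 1.23 ± 0.26 (adjusted p = 0.0219). Both were also above B73, where they had 22.9 to 42.2 units. The other snoRNA genes called were LOC111591011 and, from a family of long snoRNA genes treated further on, LOC111591087 and LOC118476588, with log2 differences of 1.49, 1.55 and 1.22, and LOC111591046 with 1.18.

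Most of the snRNA coverage came from a family of 5 genes of 160 or 161 bases within 63.2 kb (38596163 to 38659373). Together they had 619 and 775 units in B73, 771 and 817 in Mm, 1623 and 1803 in mm and 594 in the ago104 library. The members LOC111590945, LOC111590946, LOC111590947 and LOC118476581 had nearly the same depth profile, with r over bases of at least 0.999 for each pair. Their mean coverage ran from 235 to 241 units. Reads that match several genes can be placed at any of them by the aligner. By the study's methods, its genome alignment could also report a read at more than a single place. The coverage of these 4 genes therefore cannot be told apart, and they do not count as 4 separate observations. Whether reads counted at several genes raised the sum over the family was not tested. The 5th, LOC118476582, had a profile of its own (r of 0.852 to 0.861 with the others) and the fewest units, 63.0 and 63.8 in Mm and 180 and 155 in mm.

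Of these 5 genes, 4 were called higher in mm than in Mm, with log2 differences of 1.06 to 1.38. The largest was that of LOC118476582, at 1.38 ± 0.26 (SE, adjusted p = 0.0145). LOC111590946 missed the threshold with 186 and 192 units in Mm, 340 and 422 in mm and a log2 difference of 1.00 ± 0.30 (adjusted p = 0.0562). In LOC118476581, 70.1% of coverage lay in bases 136 to 155 of 161, the same stretch in all 6 libraries to within 5 bases.

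Another family, of 4 snRNA genes of 103 bases within 53.5 kb (179032227 to 179085721), had 121 and 208 units in B73, 308 and 279 in Mm and 483 and 484 in mm. The 3 genotypes stood in this order in LOC111590995, LOC118476583 and LOC118476584 without overlap. These 3 genes also shared their profile (r of at least 0.957), while LOC118476585 did not (r of -0.16 to -0.39). None passed the threshold between mm and Mm, with log2 differences of 0.64 to 1.05 and adjusted p of 0.146 to 0.188. Against B73 all but LOC118476585 were higher in mm, by 1.57 to 1.68 on the log2 scale.

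The 4 snRNA genes of 117 to 119 bases each had their lowest mean in Mm. LOC111590994 (4925391 to 4925509, overlapping the lncRNA gene LOC103645830) had 41.4 and 42.1 units in B73, 8.36 and 9.46 in Mm and 21.6 and 22.3 in mm. LOC111590991 had 35.0 and 21.2 units in B73, 3.32 and 4.66 in Mm and 12.9 and 12.7 in mm. In both genes the 3 genotypes did not overlap. The log2 difference between mm and Mm was 1.21 ± 0.25 (SE, adjusted p = 0.0185) for LOC111590994 and 1.48 ± 0.33 (adjusted p = 0.0254) for LOC111590991. LOC111590992, with 6.39 and 16.6 units in Mm and 31.6 and 23.6 in mm, and LOC111590993, with 1.80 and 4.24 in Mm and 8.65 and 6.89 in mm, missed the threshold (adjusted p of 0.0759 and 0.0968).

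Among longer snRNA genes, LOC111590950 (156 bases) had 10.4 and 7.61 units in B73, 12.6 and 16 in Mm and 32.5 and 32.9 in mm, with a log2 difference to Mm of 1.15 ± 0.28 (SE, adjusted p = 0.0317). The 8 snRNA genes of 191 to 201 bases together had 101 and 72.8 units in B73, 52.2 and 86.5 in Mm and 77 and 80.0 in mm, so that the genotypes overlapped. LOC111590951, LOC111590953 and LOC111590954 had log2 differences between mm and Mm of 0.61 to 0.81 with adjusted p of 0.161 to 0.412. LOC111590952 was the only member tested in which both mm libraries lay below both Mm libraries, with 16.8 and 20.3 units in Mm and 11.9 and 13.0 in mm and a log2 difference of -0.54 ± 0.28 (adjusted p = 0.207). Of the other 5 genes that lay lower in mm, all under the filter, 3 were snRNA genes of this length class (LOC111590966, LOC111590975 and LOC111590979) and 2 were snoRNA genes (LOC111591033 and LOC111591042). LOC111590975 had 3.28 and 4.50 units in Mm and 0 in both mm libraries.

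Against B73, mm differed in both directions. Over all 101 genes both mm libraries lay above both B73 libraries in 53 and below in 17, against 19.8% and 39.3% of the genes with any coverage. Of the 63 tested, 24 were called higher and 3 lower, where 6.4% and 14.1% of all genes tested were. Their log2 differences were 1.31 to 5.57 for the higher and -0.90 to -2.91 for the lower. Without mm replicate 1 or 2, 3 and 2 members were called in either direction, with 224 and 148 of all genes, and without Mm replicate 1 or 2, 11 and 10 members, with 352 and 335 of all genes. Under median ratio scaling the calls over all genes moved from 258 higher and 569 lower to 329 and 450, with 25 members higher and 2 lower. The mm and Mm comparisons with B73 share the B73 libraries.

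The largest difference between the genotypes was that of the snoRNA gene LOC111591011 (7143143 to 7143256), which lies within the protein-coding gene LOC541935. It had 1.45 and 1.59 units in B73, 31.6 and 55.0 in Mm, 120 and 117 in mm and 43.2 in the ago104 library. The log2 difference to B73 was 5.57 ± 0.32 (SE, adjusted p = 0.00369) for mm and 4.08 ± 0.32 (adjusted p = 0.00922) for Mm. The call between mm and B73 held under all 18 alternatives (adjusted p from 1.8e-14 to 0.0395). Of its coverage 96.2% lay in bases 95 to 114 of 114. The neighbour LOC111591012, within the same gene, had 1.01 and 2.29 units in B73, 6.29 and 3.51 in Mm and 16.5 and 14.0 in mm, and was higher in mm than in B73 by 2.66 on the log2 scale (adjusted p = 0.011). Since B73 is also the reference genome of the annotation, a difference in sequence between the backgrounds was not tested.

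Other large differences between mm and B73 were those of LOC111591076 (3.25), LOC111591056 (3.24), LOC111591020 (2.83), LOC111591065 (2.79), LOC111591009 (2.79), LOC111591029 (2.61) and LOC111591031 (2.54) on the log2 scale, all of them snoRNA genes. LOC111591065, inside the protein-coding gene LOC103649304, had 10.1 and 33.4 units in B73, 63.1 and 89 in Mm and 121 and 149 in mm. B73 replicate 1 lay under B73 replicate 2 in all of these 7 genes. Over all genes tested, log2 values of the 2 B73 libraries correlated with r = 0.826, against 0.943 in Mm and 0.940 in mm, and over the members tested with 0.891, 0.948 and 0.976.

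The 3 members lower in mm than in B73 were LOC111591081, LOC111591062 and LOC111590994. LOC111591062 (210144053 to 210144154, overlapping the lncRNA gene LOC103647713) had 17.7 and 51.2 units in B73, 5.15 and 2.25 in Mm and 4.05 and 2.41 in mm, a log2 difference of -2.91 ± 0.58 (SE, adjusted p = 0.0187). LOC111591081 had 356 and 335 units in B73, 85.7 and 121 in Mm and 97.2 and 91.3 in mm, a log2 difference of -1.86 ± 0.29 (adjusted p = 0.00973). LOC111590994 differed by -0.90 ± 0.25 (adjusted p = 0.0462). When covered bases were counted in place of depth, the direction of all 3 turned, to 0.75, 1.78 and 1.91 on the log2 scale. That measure cannot exceed the length of a gene and was scaled by the covered bases of the library.

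Fewer genes were called between Mm and B73. Over all 101, both Mm libraries lay above both B73 libraries in 24 and below in 24, against 37.2% and 16.6% of genes with any coverage. Of those tested, 2 were called higher in Mm (LOC111591011 and LOC111591064), where 0.819% of genes were, and 4 lower (LOC111590991, LOC111590994, LOC111591081 and LOC111590989), where 1.29% were. The 4 that were lower had log2 differences of -1.62 to -2.52. LOC111590989, a snoRNA gene of 128 bases, had 39.7 and 43.4 units in B73, 14.1 and 11.8 in Mm and 24.9 and 21.6 in mm. Without any 1 of the Mm or mm libraries 0 of these 6 calls remained, with 4 to 6 members higher and 8 to 16 lower at an unadjusted p under 0.05 in limma, where 387 to 773 of the 4030 genes passed. Without B73 replicate 1 or 2, 17 and 29 members were called in either direction, with 396 and 865 of all genes. Under median ratio scaling the calls over all genes moved from 33 higher and 52 lower to 20 and 56.

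A family of 7 snoRNA genes of 219 to 233 bases, spread over 1433 kb (8101843 to 9535277), had its highest sum in B73. Together these genes had 1058 and 1547 units in B73, 413 and 581 in Mm, 912 and 1046 in mm and 459 in the ago104 library. The 3 genotypes did not overlap in this sum, though 1058 in B73 and 1046 in mm lay close. The genes did not all stand higher in B73 than in mm. The log2 difference of mm to B73 was -1.86 in LOC111591081, -0.93 in LOC111591085 and -0.72 in LOC111591086. It was -0.07 in LOC118476588 and 0.10 to 0.21 in LOC111591080, LOC111591083 and LOC111591087. Members of the family shared profiles within groups. LOC111591085 and LOC111591086 had r of 1.00 over bases and LOC111591083 and LOC111591087 r of 0.999. LOC111591080 had r of 0.977 and 0.978 with the latter pair, and LOC118476588 had r of 0.903 to 0.923 with these 3 genes. The coverage of genes within such a group cannot be told apart. LOC111591081 shared no such profile, with r of 0.327 to 0.555 with the other genes of the family. LOC111591080 had 144 and 271 units in B73, 83.5 and 105 in Mm and 219 and 229 in mm, with a log2 difference between mm and Mm of 1.25 ± 0.37 (SE, adjusted p = 0.0571). LOC111591081 had nearly the same units in mm as in Mm (log2 difference -0.11 ± 0.29, adjusted p = 0.807, turning to 0.27 under median ratio scaling and to 0.13 without Mm replicate 2).

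Alignments within this family started at a few places, and the weight of these places differed between genotypes. Starts at bases 4 to 6 made up 42.7% and 34.9% of the family's alignments in B73, 41.0% and 31.3% in Mm and 21% and 11.6% in mm. Starts at bases 25 to 27 made up 18.2% and 27.4% in B73, 15.5% and 21.9% in Mm and 37.7% and 48.9% in mm. Both mm libraries lay outside the range of the B73 and Mm libraries at both places. The ago104 library, at 15.3% and 14.7%, lay below that range at both. Starts at bases 97 to 101 made up 3.29% and 14.4% in the B73 libraries, 19.8% and 23.5% in those of Mm, 21% and 19% in those of mm and 38.9% in the ago104 library. The intervals of mm replicate 1 (Clopper-Pearson, 95%) were 18.2% to 23.9% and 34.4% to 41.1% for the 2 places. Each gene of the family had 22 to 27 starts at bases 4 to 6 in mm replicate 1 and 324 to 353 in B73 replicate 2. Whether the same reads were counted at several genes was not tested. If so, the intervals, which take alignments as independent, are too narrow and sums over the family too high. These places were picked after their values were seen, and the shares got no test.

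Counted for every 1000000 alignments of chromosome 2, starts at bases 25 to 27 came to 199 and 425 in the B73 libraries, to 66.2 and 127 in those of Mm and to 330 and 488 in those of mm. Starts at bases 4 to 6 came to 467 and 540 in the B73 libraries, to 175 and 181 in those of Mm and to 184 and 115 in those of mm. Mm and mm thus overlapped at bases 4 to 6 and did not overlap at bases 25 to 27. The share of the place at bases 25 to 27 differed between genes of the family. In mm replicate 2 it took 63.5% of the alignments of LOC118476588, 64.6% of LOC111591087 and 65.6% of LOC111591083, but 2.83% of LOC111591085 and 3.33% of LOC111591081. In B73 replicates 1 and 2 these last genes had higher shares there, 12.8% and 6.70% for LOC111591085 and 5.72% and 21.5% for LOC111591081. Another place, at bases 153 to 155, took 18.5% of the family's alignments in B73 replicate 1 and 2.87% in B73 replicate 2, and 48.7% and 12% of those of LOC111591081.

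**Figure D4:**
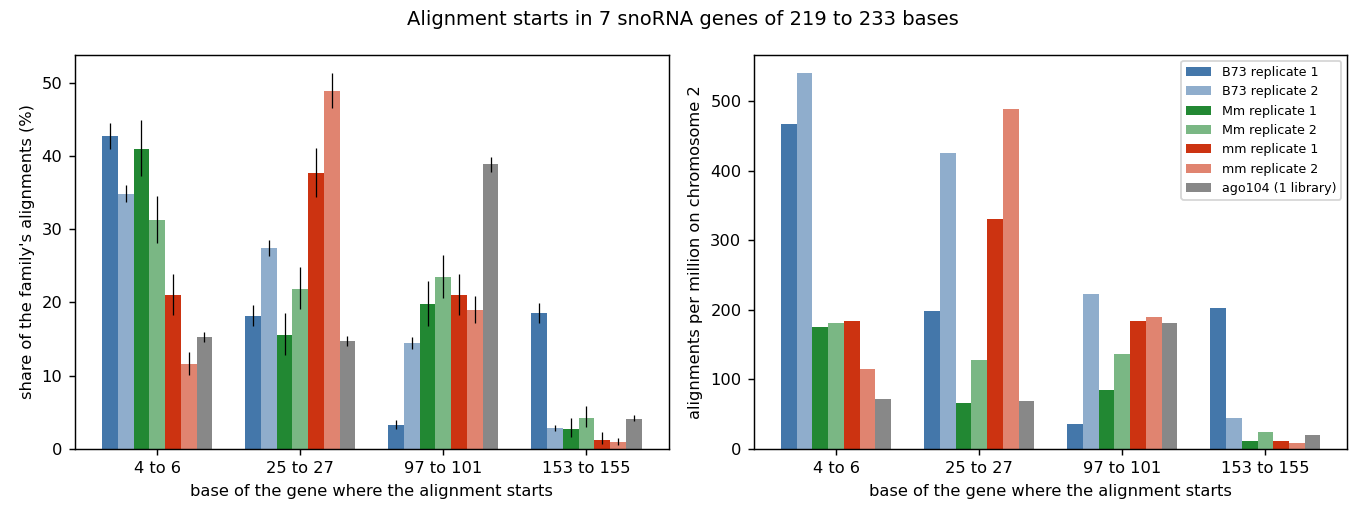
Alignments of the 7 snoRNA genes of 219 to 233 bases by start position in 7 libraries, as a share of the family's alignments (left, with Clopper-Pearson 95% intervals) and per 1000000 alignments on chromosome 2 (right). Starts at bases 25 to 27 reach 37.7% and 48.9% in mm, above the 15.5% to 27.4% of B73 and Mm. The intervals take alignments as independent, although the same reads may be counted at several genes.

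LOC111591016 (239988385 to 239988467) had fragments from 2 separate places. It had 255 and 124 units in B73, 28.7 and 54.9 in Mm, 121 and 86.9 in mm and 99.9 in the ago104 library. A single alignment of 17 bases, from base 21 to 37, made up 97.1% of its 755 alignments in B73 replicate 1, 68.5% of 565 in B73 replicate 2, 22.2% and 34.2% in Mm, 23.6% and 8.82% in mm and 80.0% in the ago104 library. Starts at bases 60 to 62 made up 0.265% and 18.1% in B73, 53.3% and 46.1% in Mm and 48.1% and 63.2% in mm. The gene had a log2 difference between mm and Mm of 1.35 ± 0.47 (SE, adjusted p = 0.0895). Counted for every 1000000 alignments, the B73 libraries had 264 and 87.3 copies of the fragment at bases 21 to 37, those of Mm 6.43 and 18.3 and those of mm 26.7 and 6.89, so that Mm and mm overlapped. For starts at bases 60 to 62 the Mm libraries had 15.4 and 24.7 and the mm libraries 54.4 and 49.4, which did not overlap.

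Such confinement to short stretches was common. In the 63 genes tested, the 20 bases with the most coverage held a median of 70.9% of it (range 33.0% to 99.2%), where even coverage would give a median of 19.4%. They held more than 50% in 53 genes and more than 80% in 16. These bases were picked for their coverage, so that their share lies above the even one by construction. Where alignments are few, a single one nearly fills the stretch. The stretch lay in the same place, to within 5 bases, in all 6 libraries for 31 genes and in at least 5 for 44. The median correlation over bases between the profiles of mm and Mm was 0.971, between mm and B73 0.932 and between Mm and B73 0.917. Between replicates the B73 pair had 0.919, the Mm pair 0.950 and the mm pair 0.976. Profiles of genotypes were summed over both libraries and those of replicates were single libraries, so these values are not on a par.

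Genes that lie next to each other often differed in level. Of the snoRNA genes, 39 lay in 17 groups with gaps of at most 1 kb, and the ratio of the highest to the lowest mean units per 100 bases within a group had a median of 4.27 (range 1.19 to 142). The widest was between LOC111590990, which had 11 and 39.1 units in B73, 20.2 and 42.5 in Mm and 77.4 and 72.3 in mm, and LOC111591054, with 0.261 units per 100 bases on average. The closest levels were those of LOC111591065 and LOC111591003, at 54.3 and 45.5 units per 100 bases. Another 5 genes of 89 bases within 1 kb (169584028 to 169584972) had 2.40 and 17 units in B73, 11.7 and 21.4 in Mm and 40.1 and 45.3 in mm between them. No snRNA gene lay in such a group. Of all 101 members 36 overlapped another annotated gene, 23 of them a protein-coding gene and 10 a lncRNA gene, and whether reads came from the member or from its host cannot be told apart in coverage.

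Over all 101 genes together the lengths of rebuilt alignments overlapped between Mm and mm at 17 and 19 bases, while those of the whole chromosome did not. This contrast depends on how alignments were rebuilt, as the values for isolated stretches given further on show. Lengths are those of alignments rebuilt from the coverage by pairing each rise in depth with a fall, and 16 to 21 bases held 91.7% of the alignments or more in every library. These are shorter than the reads that the methods of the study describe, for a reason that was not tested, and are not taken for lengths of the small RNAs. Within the 101 genes, 17 bases made up 34.6% and 22.4% of alignments in B73, 18.5% and 14.8% in Mm and 17.3% and 16.4% in mm. Over chromosome 2 they made up 18.9% and 22.1% in B73, 15.4% and 16.2% in Mm and 28.0% and 28.2% in mm. The mean of mm minus that of Mm was 0.22 percentage points within the genes and 12.3 over the chromosome.

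At 19 bases the pattern was similar. The share within the genes was 19.3% and 29.1% in B73, 24.8% and 28.4% in Mm and 28.0% and 28.7% in mm, a difference of 1.73 points between mm and Mm. Over the chromosome the Mm libraries had 35.9% and 34.2% and the mm libraries 18.1% and 17.8%, a difference of -17.1 points. Mm and mm overlapped within the genes at both lengths and did not overlap over the chromosome at either. Among the 26 genes with at least 20 alignments in each of the 6 libraries, the 17-base share was higher in mm in 13 and lower in 13, and the 19-base share was higher in 14 and lower in 12. Without LOC111591064 the differences were -1.46 points at 17 bases and 1.98 at 19. With isolated stretches only, which border no other coverage and need no pairing, they were 16.2 and -9.27 points. The members held just 42 to 91 of these per library. Over the chromosome, isolated stretches of 17 bases made up 14.9% and 14.7% in Mm and 32.7% and 34.0% in mm. Those of 19 bases made up 40.7% in both Mm libraries and 14.3% and 10.9% in mm. Members and chromosome then differed in the same direction. Where reads overlap, pairing in order can give other lengths than those of the reads.

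**Figure D5:**
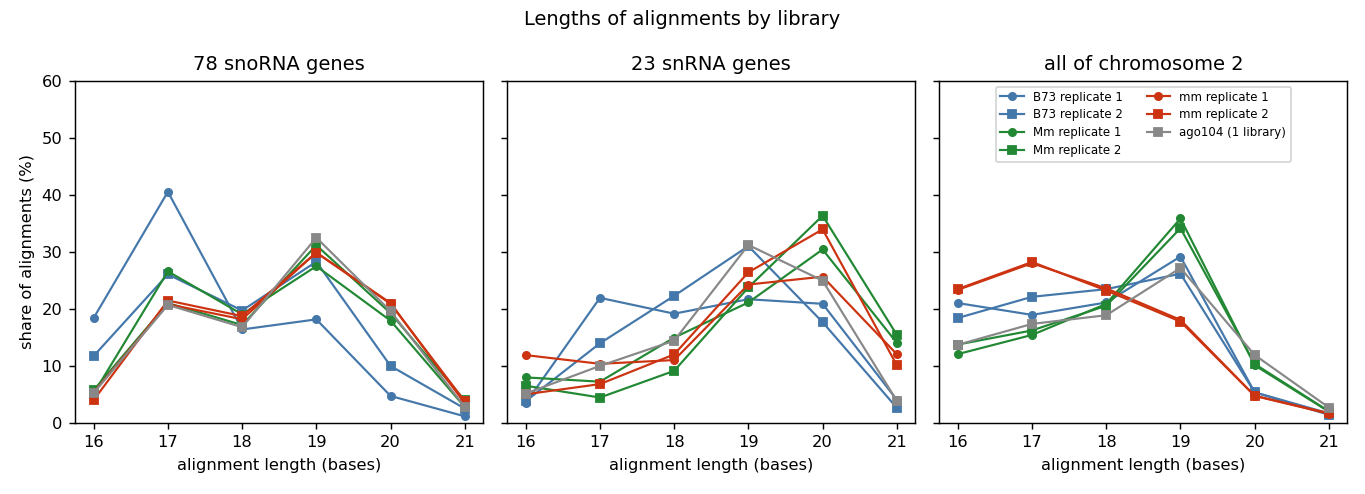
Share of alignments (%) of 16 to 21 bases in 78 snoRNA genes, 23 snRNA genes and all of chromosome 2, 1 line for each of 7 libraries. In snoRNA genes 19 bases is the most frequent length in Mm (27.5% and 31.2%) and mm (29.9% in both), whereas over the chromosome mm peaks at 17 bases (28.0% and 28.2%) and Mm at 19 (35.9% and 34.2%).

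By type, snoRNA alignments of mm and Mm differed by -2.66 points at 17 bases and 0.55 at 19. Without LOC111591064 the snoRNA share at 17 bases was 27.6% and 18.9% for Mm, and 18.3% and 15.3% for mm, which did not overlap. The difference was then -6.45 points at 17 bases and 4.05 at 20. In snRNA genes 20 bases was the most frequent length in Mm (30.4% and 36.4%) and in mm (25.7% and 34.0%), and 21 bases made up 14.0% and 15.4% in Mm and 12% and 10.1% in mm. B73 lay outside the range of Mm and mm at some lengths. Lengths of 16 and 17 bases together made up 59.0% and 37.8% of its snoRNA alignments, against 25.5% to 31.7% in Mm and mm. In snRNA genes this share overlapped, at 25.4% and 17.75% in B73 and 10.9% to 22.2% in Mm and mm. Over the chromosome it was 40.0% and 40.5% in B73, 27.5% and 30.0% in Mm and 51.4% and 51.7% in mm. Alignments of 21 bases made up 4.03% and 2.62% of the snRNA alignments of B73.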

How the data were processed

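Small RNAs from immunoprecipitates of ears were sequenced by the authors, trimmed and aligned with Bowtie 1.2.2, and turned into coverage with bedtools. The deposited coverage signal of 7 libraries gives the whole-number depth of aligned reads on chromosome 2, without scaling. Whether it stems from the genome or the composite alignment is not given in the sources used here. By the study's methods, the genome alignment could report a read at more than a single place. The alignment to the composite dropped reads with more than 7 alignments. Sums over genes with like sequence may thus count the same read at several genes. The chromosome of the files was read as a composite based on version 5 of B73. An offset of 7855 bp, inferred from the data as the one at which coverage met the annotated genes, was added to positions past b1, and printed coordinates are 1-based and those of the files. Tables by length class (another build, no sample) were not used here. No input or unprecipitated library was analysed here.

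Coverage within each gene was scaled to 1000000 units per library. limma 3.58.1 (R 4.3.3) was fitted with a trend to log2(units + 1) of 3 genotypes in one model, for genes with a mean of at least 5 units, with Benjamini-Hochberg adjustment over 4030 genes at 0.05. Fold changes are on that log2 scale, which understates those of low genes. Count models were not used since values are depths. Alignments were rebuilt by pairing rises with falls of the depth in order (Python 3.11.15, numpy 2.4.6, pandas 2.3.3). The fit was tested on simulated data. Reads placed at several copies cannot be undone. Intervals (95%, scipy 1.17.1) cover counting error only, as do limits, and take each alignment as a separate read. Replicates are the labels' numbers, which the study's methods do not tie to each other across genotypes. Those methods call them biological, whereas a figure legend of the study speaks of both technical and biological repeats. Whether the libraries of a genotype are fully independent is therefore not known.

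Named are the 12 members with the most units per 100 bases, up to 10 called per comparison and direction, and every snRNA gene tested. Others named were chosen after their values were seen. Members and lists were chosen with earlier results of these data known. Positions by gene strand and a planned list of snoRNA and snRNA protein genes could not be run, since the annotation table used has neither strands nor descriptions.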

Additional observations from a re-analysis of the deposited data

Results flagged for a closer look

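The ago104 library enters no comparison, since it has no replicate. Sums of 33477 and 17058 alignments over many genes exceed the limit that a count of 0 allows (3 counts, or 0.149 of every 1000000 alignments in that library) by construction, and nothing is read from that. The 78 snoRNA genes had 1665 of every 1000000 alignments on chromosome 2 and the 23 snRNA genes 848. The same values were 1907 and 2547 for snoRNA genes in B73 and 1560 and 1924 in Mm and 4169 and 4211 in mm, and 892 and 1083 for snRNA genes in B73 and 1113 and 1160 in Mm and 2094 and 2214 in mm. All 101 genes were covered. With 1 library, no statement on the ago104 genotype follows from these values.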

How the results depend on the processing

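Counts of calls moved with several settings and changed little with others, such as another pseudocount, added bases or no trend. A minimum of 20 units also cut the genes tested from 4030 to 1772 and the members tested from 63 to 34. Counts under that setting thus have a smaller base. With it, 559 genes were called for mm against B73, and 13 members for mm against Mm. For mm against Mm, 864 genes were called, 496 with a minimum of 20 units, 1792 with 2 genotypes in the fit, and 0 to 1779 when 1 replicate was left out. Of the members 17 were called, 49 by covered bases, 47 with 2 genotypes, and 0 to 46 with 1 replicate left out. For mm against B73, 827 genes were called, 342 with 2 genotypes and 148 to 1691 with 1 replicate left out, and 27 members, 16 with a minimum of 20 units, 60 by covered bases, 10 with 2 genotypes and 2 to 38 with 1 replicate left out. For Mm against B73, 85 genes were called, 7 by covered bases, 0 with 2 genotypes (782 at an unadjusted p under 0.05) and 0 to 865 with 1 replicate left out, and 6 members, 0 by covered bases, 0 with 2 genotypes and 0 to 29 with 1 replicate left out. Covered bases split all calls as 1062 higher and 165 lower for mm against Mm and 903 and 143 for mm against B73. Fits that leave an arm with 1 library assume that it varies like the others.

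The ratio of mm to Mm was 3.26 with median ratio scaling and 2.97 by covered bases for snoRNA genes, and 2.57 and 2.50 for snRNA genes. Leaving out 1 replicate gave 2.27 to 2.86 and 1.91 to 2.06. Isolated stretches moved the differences at 17 and 19 bases to 16.2 and -9.27 points. Leaving out 1 replicate gave -1.65 to 2.09 points at 17 bases and -0.04 to 3.50 at 19.

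Replicate numbers did not pair the libraries. Deviations of same-numbered libraries correlated with r of 0.12 (B73 and Mm), -0.02 (B73 and mm) and 0.02 (Mm and mm). With a replicate block, calls for mm against Mm fell to 743 genes and 14 members, for mm against B73 to 717 and 23, and for Mm against B73 to 3 and 1.

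Of 64 differences of single genes, 9 turned under at least 1 setting, 11 times in all. By covered bases these were LOC111590952 (mm against Mm, 0.93), LOC111591081 (1.42 against Mm, 1.78 against B73, 0.35 for Mm against B73), LOC111590994 (1.91 for mm and 0.53 for Mm, both against B73), LOC111591062 (0.75) and LOC111590989 (0.10). Without Mm replicate 1 or 2 LOC111590954 gave -0.25 and 1.88 and LOC111591081 -0.35 and 0.13, and with median ratio scaling the latter turned to 0.27. The cause was not tested. Covered bases are capped by gene length and were scaled by library totals, which were lowest in mm (3782910 and 5966873). By that measure all 63 members tested had a positive log2 difference for mm against Mm. The median of all genes tested was then 0.41, against -0.26 by depth. Shares of coverage by gene strand were not run. Members under 5 units rest on few reads, and differences there were mostly not detectable at this depth.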
